A study of Mus musculus with 4 samples.

Results

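Fatty acid oxidation and ketone genes were examined in irradiated mouse intestinal organoids given the bromodomain inhibitor SGC-CBP30 or vehicle. The 37 genes were chosen by symbol, as genes of fatty acid uptake, activation, mitochondrial and peroxisomal oxidation, ketone metabolism and PPAR-alpha targets, out of 51509 genes listed and 26144 with at least 1 count. Each of the 37 symbols matched 1 row, and each gene passed the filter on low counts.

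Organoids are epithelial cultures that form crypt and villus-like domains in a gel. All of these came from the intestine of C57BL/6 mice, wild type and 8 to 12 weeks old, and all had received 8 Gy of radiation 36 hours before RNA was taken, so both groups share the irradiation and no unirradiated group was analysed here. The SGC-CBP30 group and the vehicle group held 2 libraries each. SGC-CBP30 occupies the acetyl-lysine pocket of CBP and p300, which are acetyltransferases, and its concentration is not given in the sources used here. The treatment label of SGC-CBP30 replicate 2 reads SGC-CBP31; its title places it in the SGC-CBP30 group, and results without it are given where they differ. No label says whether replicates were separate cultures or animals, so the p-values reflect only library-to-library spread, which may be technical.

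The libraries held 16674571 and 17076724 counts for SGC-CBP30 and 18087250 and 16433117 for vehicle. The 37 genes took 0.633% and 0.610% of the counts in the SGC-CBP30 libraries, against 0.660% and 0.657% in the vehicle libraries. The 7 general epithelial markers summed to 7388 and 6863 CPM with SGC-CBP30 and 5701 and 5708 CPM with vehicle. By the test used below 3 were higher (42.9%, against 13.6% of all tested genes) and 2 lower (28.6%, against 16.3%). Fibroblast, leukocyte and endothelial marker lists summed to at most 3.17 CPM in any library, with Lum at 0 counts in all libraries. The 4 adipocyte markers summed to 48.3 and 44.3 CPM with SGC-CBP30 and 43.2 and 44.8 CPM with vehicle, nearly all of it from Cidec. Adipoq had 1 count, in SGC-CBP30 replicate 1, while Plin1 and Lep were at 0 counts. CPM are normalized counts scaled to library size with TMM factors, and values of a pair are given as replicate 1 and replicate 2 throughout.

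Fatty acids enter cells through carriers such as CD36 and are joined to coenzyme A by acyl-CoA synthetases. Carnitine acyltransferases move the acyl groups into mitochondria, where a repeating spiral of dehydrogenation, hydration, dehydrogenation and thiolysis shortens them, while peroxisomes shorten the very long and branched chains. PPAR-alpha is the nuclear receptor that senses fatty acids and induces many of these genes, binding DNA with RXR at direct repeats of a half-site, and in the small intestine this machinery is known chiefly from the absorptive enterocytes of the villus.

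The stretches upstream of 2 genes are shown because these genes had the largest change in either direction, Cd36 lower and Cpt1a higher with SGC-CBP30. Both are 250 bases ending just before a RefSeq start site on GRCm38.p6, 5′ to 3′ on the gene's strand, and capitals mark the receptor half-site AGGTCA read on either strand, here as its reverse complement. The Cd36 stretch is chr5:17835897-17836146 on the minus strand and lies before a start that is 52905 bases inside the gene as the deposited table spans it. The Cpt1a stretch is chr19:3323051-3323300 on the plus strand and ends just before the first base of the gene.
Cd36: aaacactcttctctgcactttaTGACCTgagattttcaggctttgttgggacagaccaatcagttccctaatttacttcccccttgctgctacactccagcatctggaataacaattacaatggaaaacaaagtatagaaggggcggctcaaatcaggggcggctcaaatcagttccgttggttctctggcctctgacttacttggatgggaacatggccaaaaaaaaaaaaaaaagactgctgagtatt
Cpt1a: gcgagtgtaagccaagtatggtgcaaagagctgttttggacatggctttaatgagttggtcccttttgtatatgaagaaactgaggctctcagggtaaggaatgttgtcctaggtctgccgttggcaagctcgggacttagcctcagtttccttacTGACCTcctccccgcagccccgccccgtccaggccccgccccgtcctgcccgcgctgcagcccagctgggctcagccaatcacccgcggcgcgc
The half-site begins 228 bases before the start in Cd36 and 94 bases before it in Cpt1a. The base composition differs, with 43.2% G and C upstream of Cd36 and 59.6% upstream of Cpt1a. Windows of 300 bases, 250 before and 50 after the start, were found for 31 of the 37 genes, 33 windows in all. The half-site was present in 5 of them, those of Acadm, Acadvl, Cd36, Cpt1a and Plin2, and in 16.3% of all 32851 promoter windows. The full direct repeat AGGTCANAGGTCA was in 0 of the 33 windows and in 0.0396% of all windows. Only these exact letters were searched, and a motif this rare would hardly be met in 33 windows. The 0 therefore does not show whether these genes have receptor sites. The 5 genes with a half-site included 2 that fell, 1 that rose and 2 that were not past the threshold with SGC-CBP30.

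The stretch between Hadha and Hadhb is shown because it separates 2 members of the pathway as the deposited table spans them; the RefSeq start of each lies inside its span. They encode the alpha and beta subunits of the mitochondrial trifunctional protein, which carries out the last steps of the spiral on long chains. The genes stand head to head, with 85 bases between them at chr5:30155163-30155247 (GRCm38.p6, given on the plus strand, which is the strand of Hadhb). Capitals mark the GC box GGGCGG, read on either strand.
Hadha and Hadhb: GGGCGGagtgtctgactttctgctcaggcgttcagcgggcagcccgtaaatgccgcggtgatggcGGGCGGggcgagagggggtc
The stretch holds 2 GC boxes and is 69.4% G and C. A GC box was present in 35.7% of all promoter windows. Those windows are 300 bases long and set by RefSeq starts, so the share is not for stretches of this length or kind.

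The 37 genes changed in different directions. Cd36, Angptl4, Plin2, Acsl1, Acot1 and Ehhadh fell with SGC-CBP30, whereas Cpt1a, the gate of mitochondrial fatty acid entry, rose, and the mitochondrial spiral held genes of both directions. In all, 16 of 37 genes (43.2%) fell, against 16.3% of all 14684 tested genes, and 4 of 37 (10.8%) rose, against 13.6% of all (quasi-likelihood test in edgeR, p under 0.05 after Benjamini-Hochberg adjustment over all tested genes). Together 54.1% of the 37 genes were called, against 30.0% of all tested genes, while the other 17 were not past the threshold. Ignoring sign, the median log2 fold change was 0.21 over the 37 genes and 0.25 over all tested genes. These medians are over genes of unlike level, so they do not show whether the higher share called went with larger changes. Most of the 37 genes were abundant, with a median level per length at percentile 88.4 of tested genes. The part of expression level in the share called was not tested. The median log2 fold change was -0.15 over the 37 genes and 0.01 over all tested genes. The median of the 37 genes was -0.0237 with SGC-CBP30 replicate 2 left out, and -0.075 under scaling by library totals, where that of all genes was 0.0826. The size of change was modest: 7 of the 20 called genes changed by at least 1.5-fold, and 2 by at least 2-fold. Ignoring sign, the median was 0.30 on the log2 scale for the called pathway genes, against 0.48 for every called gene. Genes of low count pass the threshold only with larger changes, so these 2 medians are not over genes of like level. The part of level in their difference was not tested.

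In 29 of 37 genes (78.4%) the groups did not overlap, against 63.1% of all tested genes. With SGC-CBP30 replicate 1 left out 17 genes were lower and 4 higher, and with SGC-CBP30 replicate 2 left out 16 were lower and 6 higher. The counts moved more with single vehicle libraries: without vehicle replicate 1 there were 8 genes lower and 2 higher (1760 and 1236 of all genes), and without vehicle replicate 2 there were 9 lower and 2 higher (1664 and 1235 of all genes). With 1 vehicle library left, the spread comes from the SGC-CBP30 pair alone. That pair differed more (chi-square over its degrees of freedom 6.68, against 3.05 for vehicle). The median log2 fold change of the 37 genes was -0.1445 without vehicle replicate 1 and -0.1141 without vehicle replicate 2, against -0.1480 with all libraries. Scaling by library totals gave 11 lower and 8 higher, and 1924 lower and 2907 higher over all genes. Higher calls thus became more frequent in general. The genes called under each of the 10 alternative settings were Cd36, Angptl4, Plin2, Acsl1, Crat, Ehhadh and Acot1, all lower, and Cpt1a, higher.

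**Figure D1:**
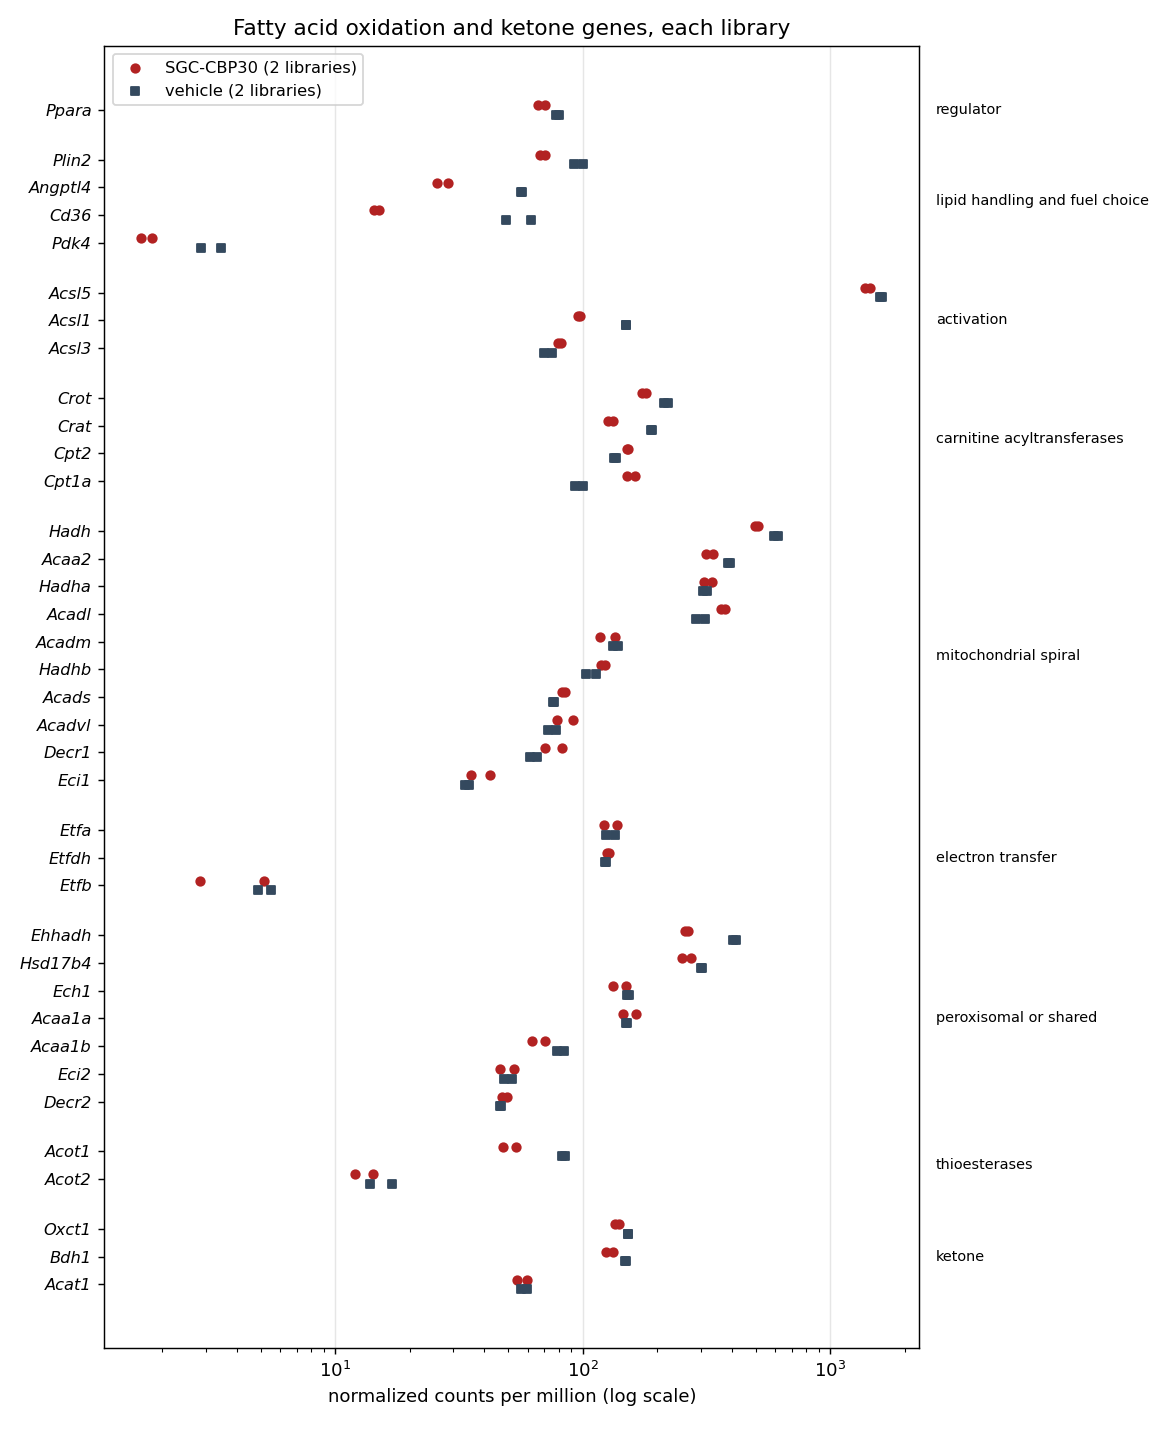
Normalized CPM on a log axis for each of the 37 genes in each library, grouped by role, with SGC-CBP30 libraries as circles above and vehicle libraries as squares below. Cd36 and Angptl4 show the widest gaps, with SGC-CBP30 libraries at 15 and 14.3 CPM for Cd36 and vehicle libraries at 49.2 and 62 CPM.

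Per length, the pathway was well expressed. On the scale of the deposited FPKM, which divides by gene length, the median of the 37 genes lay at percentile 88.4 of tested genes by mean level. Acsl5 was the most abundant at 288 ± 9.61 FPKM with SGC-CBP30 and 328 ± 4.58 FPKM with vehicle (SD, n = 2 each). Acaa2 followed at 214 ± 10.5 FPKM with SGC-CBP30 and 255 ± 1.78 FPKM with vehicle, and Acadl at 183 ± 5.28 FPKM with SGC-CBP30 and 148 ± 9.1 FPKM with vehicle. These 3 genes kept their order in both groups without overlap of libraries.

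The next levels changed places. Ehhadh had 86.6 and 88.9 FPKM in SGC-CBP30 libraries and 139 and 136 FPKM in vehicle libraries, while Hadh had 102 and 99.1 FPKM with SGC-CBP30 and 118 and 123 FPKM with vehicle. Ehhadh was thus the lower of the pair in both SGC-CBP30 libraries and the higher in both vehicle libraries, and in vehicle libraries its levels lay just under those of Acadl, at 142 and 155 FPKM. Pdk4 was the least abundant, at 0.491 ± 0.0351 FPKM with SGC-CBP30 and 0.897 ± 0.111 FPKM with vehicle (SD, n = 2 each).

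Ppara (ENSMUSG00000022383, chromosome 15, 85734983 to 85802819 on GRCm38, the build of all coordinates given here, plus strand), the gene of the receptor itself, was modestly lower. It had 65.7 and 70.7 CPM in SGC-CBP30 libraries and 80 and 78.3 CPM in vehicle libraries. The groups did not overlap, and the log2 fold change was -0.21 ± 0.08 (SE, edgeR adjusted p = 0.0359). The call was lost when either vehicle library was left out (-0.20 and -0.23), when SGC-CBP30 replicate 1 was left out (-0.17), under scaling by library totals, with no filter and in DESeq2, and the adjusted p ran from 0.00328 to 0.264 over the 10 alternatives.

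Lipid uptake, storage and fuel choice genes had the lowest median log2 fold change of any role with more than 1 gene, -0.96. All 4 of them fell, Pdk4 only barely, against 16.3% of all tested genes, a comparison that 4 genes make only coarsely. Cd36 (ENSMUSG00000002944, chromosome 5, 17781690 to 17888801, minus strand), which encodes a scavenger receptor that takes up long-chain fatty acids, had 15 and 14.3 CPM with SGC-CBP30, against 49.2 and 62 CPM with vehicle. Every SGC-CBP30 library lay below every vehicle library, and Cd36 was 3.79-fold lower, with a log2 fold change of -1.92 ± 0.12 (SE, edgeR adjusted p = 2.57e-12). Angptl4 (ENSMUSG00000002289, chromosome 17, 33773750 to 33781575, minus strand), a PPAR target that encodes a secreted inhibitor of lipoprotein lipase, had 28.5 and 25.8 CPM with SGC-CBP30 and 56.4 and 56.8 CPM with vehicle. It was 2.09-fold lower, at -1.06 ± 0.09 on the log2 scale (SE, edgeR adjusted p = 2.37e-09), again with no overlap. Plin2, the gene of a lipid droplet coat protein, had 70.7 and 67.4 CPM with SGC-CBP30 and 91.9 and 99.9 CPM with vehicle, and fell by 0.47 ± 0.08 on the log2 scale (SE, edgeR adjusted p = 3.11e-05).

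Pdk4, whose kinase turns off pyruvate dehydrogenase and so spares glucose when fat is burned, was rare. Its raw counts were 28 and 32 in SGC-CBP30 libraries and 61 and 46 in vehicle libraries, a log2 fold change of -0.87 ± 0.33 (SE) that barely passed (edgeR adjusted p = 0.0493). The call was lost without any 1 of the 4 libraries, with log2 fold changes of -0.80 and -0.94 without SGC-CBP30 replicates 1 and 2 and -0.73 and -0.99 without vehicle replicates 1 and 2, and under every other alternative that tested it except size factors of the DESeq2 kind. The adjusted p ran from 0.0483 to 0.269 over the 9 alternatives that tested it.

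Acyl-CoA synthetases activate fatty acids by joining them to coenzyme A. Acsl1 (ENSMUSG00000018796, chromosome 8, 46471037 to 46536051, plus strand) had 95.8 and 97.5 CPM in SGC-CBP30 libraries and 149 CPM in each vehicle library, and was 1.54-fold lower, at -0.62 ± 0.07 (SE, edgeR adjusted p = 7.5e-08). Acsl5, the main synthetase of the intestine, had 1442 and 1376 CPM with SGC-CBP30 and 1623 and 1583 CPM with vehicle. It fell by 0.19 ± 0.06 on the log2 scale (SE, edgeR adjusted p = 0.0135), a call lost without vehicle replicate 1 (-0.17) or 2 (-0.20) and with library totals as the scale, with adjusted p from 8.94e-09 to 0.242 over the alternatives. Acsl3, a synthetase of the endoplasmic reticulum and lipid droplets, had 81.4 and 79.3 CPM with SGC-CBP30 and 69.6 and 75.1 CPM with vehicle. The groups did not overlap, but its log2 fold change of 0.15 ± 0.08 (SE, edgeR adjusted p = 0.145) was not past the threshold. It passed with library totals as the scale, where the value was 0.22. The span of Zdhhc6, introns included, overlaps that of Acsl5 over 26430 bases on the opposite strand. Zdhhc6 had 936 and 1022 counts in SGC-CBP30 libraries and 1131 and 965 in vehicle libraries. The overlap of their exons was not measured. No strand setting is stated, so reads from any stretch where exons overlap could not be told apart. The same holds for shorter overlaps of spans on the opposite strand. Among these were Crat with Dolpp1 (59 bases), Acadvl with Dvl2 (2119 bases), Acaa1a with Myd88 (1736 bases) and Eci2 with Gm16984 (12705 bases). On the same strand, the span of Utp14b overlaps that of Acsl3 over 13475 bases, and Cd63-ps overlaps Hsd17b4 over 875 bases. Utp14b had 379 and 464 counts in SGC-CBP30 libraries and 430 and 352 in vehicle libraries. Further overlaps of spans are not listed here.

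The 4 carnitine acyltransferase genes were all called, 2 in each direction, where 30.0% of all tested genes were called. Cpt1a (ENSMUSG00000024900, chromosome 19, 3323301 to 3385732, plus strand), the rate-limiting enzyme of the outer mitochondrial membrane, had 151 and 163 CPM in SGC-CBP30 libraries and 93.2 and 100 CPM in vehicle libraries. Both SGC-CBP30 libraries lay above both vehicle libraries, and Cpt1a was 1.63-fold higher, at 0.70 ± 0.07 (SE, edgeR adjusted p = 2.19e-08). Cpt2, its partner on the inner membrane, had 153 and 151 CPM with SGC-CBP30 and 134 and 136 CPM with vehicle, and rose by 0.17 ± 0.07 on the log2 scale (SE, edgeR adjusted p = 0.047). That call was lost without vehicle replicate 1 (0.16) or 2 (0.19), with size factors of the DESeq2 kind, with the stricter filter and in DESeq2, and the adjusted p ran from 0.00482 to 0.347. Per length, the Cpt1a level was 0.548 and 0.601 of the Cpt2 level in SGC-CBP30 libraries, against 0.387 and 0.41 in vehicle libraries.

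The other two acyltransferases fell. Crat, which makes acetylcarnitine from short acyl groups, had 126 and 132 CPM in SGC-CBP30 libraries and 188 and 191 CPM in vehicle libraries, and was 1.47-fold lower, at -0.55 ± 0.065 (SE, edgeR adjusted p = 3.02e-07). Crot, the peroxisomal enzyme that hands medium chains on to mitochondria, had 174 and 180 CPM with SGC-CBP30 and 222 and 214 CPM with vehicle. It fell by 0.30 ± 0.06 on the log2 scale (SE, edgeR adjusted p = 0.000609), and the call was lost without vehicle replicate 1 (-0.28, edgeR adjusted p = 0.054, the highest over its 10 alternatives, of which the lowest was 1.06e-07). Neither gene showed overlapping groups.

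**Figure D2:**
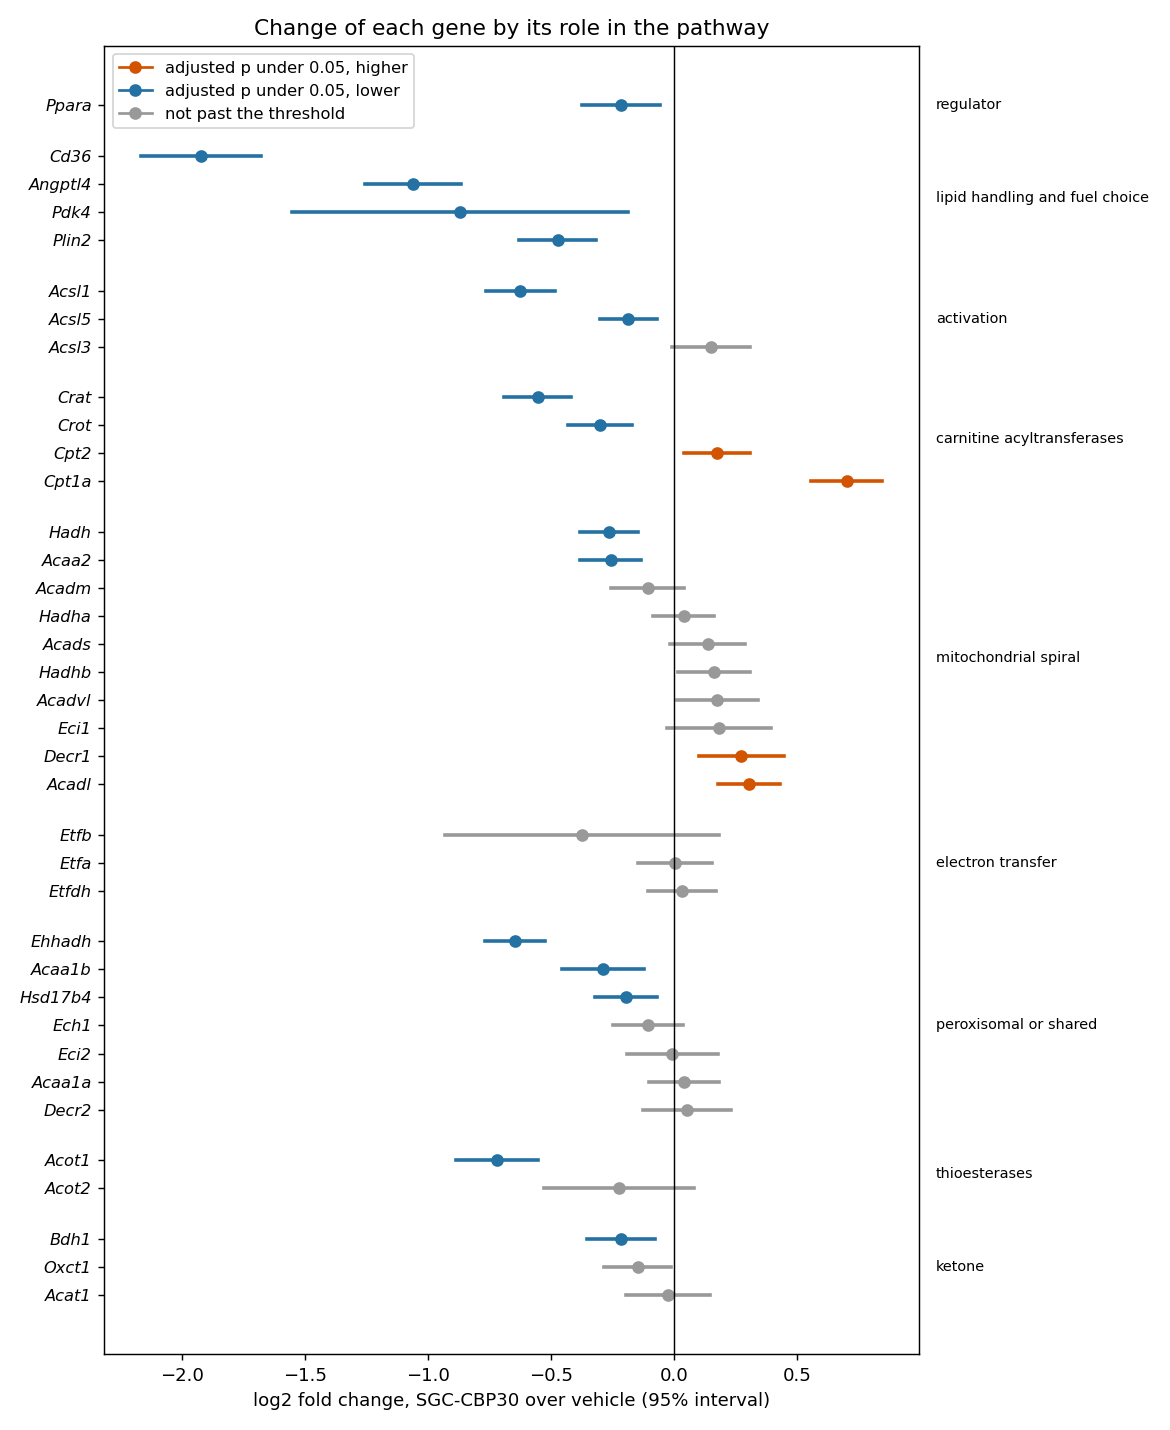
Log2 fold changes, SGC-CBP30 over vehicle, of each of the 37 genes, grouped by role, with bars for the 95% interval of the edgeR fit and colours for the call. The genes of lipid handling lie to the left of 0, with Cd36 at -1.92, and Cpt1a lies farthest to the right at 0.70.

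Of the 10 genes of the mitochondrial spiral 2 rose and 2 fell, 20% in each direction and near the 13.6% higher and 16.3% lower of all tested genes. The other 6 did not pass, and the median log2 fold change was 0.15. The first step is carried out by acyl-CoA dehydrogenases of different chain lengths. Acadl, the long-chain enzyme, had 377 and 362 CPM in SGC-CBP30 libraries and 287 and 311 CPM in vehicle libraries, and rose by 0.31 ± 0.06 on the log2 scale (SE, edgeR adjusted p = 0.000399). Without vehicle replicate 1 that call was lost (0.25, edgeR adjusted p = 0.0832, the highest over its 10 alternatives, of which the lowest was 6.77e-11). The other 3 dehydrogenases were not past the threshold. Acadvl, the very-long-chain enzyme, had 0.18 ± 0.08 (SE) and passed without SGC-CBP30 replicate 2 (0.28), Acads, for short chains, had 0.14 ± 0.07, and both passed with library totals as the scale (0.25 and 0.21). Acadm, for medium chains, had -0.11 ± 0.07 and fell without SGC-CBP30 replicate 1 (-0.21). Its groups overlapped, at 135 and 118 CPM in SGC-CBP30 libraries and 133 and 139 CPM in vehicle libraries.

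Among the genes of later steps 2 fell and 1 rose. Hadh, the dehydrogenase for short and medium chains, had 510 and 496 CPM with SGC-CBP30 and 594 and 615 CPM with vehicle, and fell by 0.27 ± 0.06 on the log2 scale (SE, edgeR adjusted p = 0.000845). Acaa2, the mitochondrial thiolase that cuts off the acetyl unit, had 336 and 314 CPM with SGC-CBP30 and 392 and 386 CPM with vehicle, and fell by 0.26 ± 0.06 (SE, edgeR adjusted p = 0.00176). The Hadh call was lost without vehicle replicate 2 (-0.24), with adjusted p from 5.52e-10 to 0.0936 over its alternatives, and the Acaa2 call without vehicle replicate 1 (-0.25) or 2 (-0.26), with adjusted p from 1.79e-09 to 0.08. Decr1, a reductase needed for unsaturated chains, had 82.3 and 70.3 CPM with SGC-CBP30 and 65.2 and 61.1 CPM with vehicle. It rose by 0.27 ± 0.08 (SE, edgeR adjusted p = 0.0153), but the call was lost in DESeq2 and when vehicle replicate 2 (0.23) or SGC-CBP30 replicate 1 (0.15) was left out, with adjusted p from 1.02e-05 to 0.184. Eci1, an isomerase for unsaturated chains, had 42.3 and 35.3 CPM with SGC-CBP30 and 33.6 and 34.7 CPM with vehicle, with a log2 fold change of 0.18 ± 0.10 (SE) that passed without SGC-CBP30 replicate 2 (0.31).

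The head-to-head pair whose shared stretch is printed above did not pass the threshold. Hadha had 332 and 310 CPM in SGC-CBP30 libraries and 307 and 318 CPM in vehicle libraries, groups that overlapped, with a log2 fold change of 0.04 ± 0.06 (SE, 95% interval -0.09 to 0.16). Hadhb had 119 and 123 CPM with SGC-CBP30 and 113 and 103 CPM with vehicle, with 0.16 ± 0.07 (SE, 95% interval 0.02 to 0.31, edgeR adjusted p = 0.0865), and passed without SGC-CBP30 replicate 1 (0.18) and under scaling by library totals (0.24). Per length, Hadha stood at 2.11 and 1.91 times the Hadhb level in SGC-CBP30 libraries and 2.05 and 2.33 times in vehicle libraries. The ratio overlapped between groups. Of the 50-base windows in Hadhb transcripts, 18.1% also occur in transcripts of Gm13910, so its counts depend on how shared reads were handled.

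Electron transfer from the dehydrogenases to the respiratory chain runs through Etfa, Etfb and Etfdh. None of these 3 genes passed the threshold, where 30.0% of all tested genes did. Etfa stood at 0.0024 ± 0.07 and Etfdh at 0.03 ± 0.07 on the log2 scale (SE), with 95% intervals of -0.15 to 0.15 and -0.11 to 0.17. Etfa and Etfb encode the subunits of 1 heterodimer, yet per length the Etfa level was 16.9 and 27.2 times that of Etfb in SGC-CBP30 libraries and 17.5 and 14.3 times in vehicle libraries. Etfb had only 88 and 50 raw counts with SGC-CBP30 and 86 and 88 with vehicle. An annotated protein-coding gene, Gm45233, covers 13673 bases of Etfb on the same strand, had 0 counts in every library and shares 43.8% of the 50-base windows of Etfb transcripts; whether reads in the shared exons were left uncounted was not tested. The SGC-CBP30 libraries stood apart for Etfb, whose log2 fold change was -0.37 ± 0.27 (SE) with all 4 libraries, -0.87 without SGC-CBP30 replicate 1 (a call, edgeR adjusted p = 0.0386, from a range of 0.0386 to 0.996) and -0.0034 without SGC-CBP30 replicate 2.

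In peroxisomes, and among enzymes shared by peroxisomes and mitochondria, 3 of 7 genes (42.9%) fell and 0 rose, against 16.3% lower and 13.6% higher of all tested genes, a comparison that 7 genes make only coarsely. Ehhadh (ENSMUSG00000022853, chromosome 16, 21761287 to 21787807, minus strand), the peroxisomal bifunctional enzyme and a PPAR-alpha target, had 259 and 266 CPM in SGC-CBP30 libraries and 417 and 406 CPM in vehicle libraries. The groups were far apart, and Ehhadh was 1.56-fold lower, at -0.65 ± 0.06 (SE, edgeR adjusted p = 3.96e-09). Hsd17b4, a second bifunctional enzyme that acts on branched chains, had 275 and 252 CPM with SGC-CBP30 and 302 and 301 CPM with vehicle. It fell by 0.19 ± 0.06 (SE, edgeR adjusted p = 0.0183), a call lost without vehicle replicate 1 (-0.19) or 2 (-0.19) and with library totals as the scale, with adjusted p from 3.67e-06 to 0.213 over the alternatives. Of the rest, Ech1 and Eci2, which act on unsaturated chains, had -0.11 ± 0.07 and -0.01 ± 0.09, and the peroxisomal reductase gene Decr2 had 0.05 ± 0.09 (SE). Ech1 fell without SGC-CBP30 replicate 1 (-0.20).

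The peroxisomal thiolase is encoded by 2 close copies, 1 of which fell while the other did not pass. Acaa1b had 70.5 and 62.4 CPM in SGC-CBP30 libraries and 83.8 and 78.4 CPM in vehicle libraries, and fell by 0.29 ± 0.08 on the log2 scale (SE, edgeR adjusted p = 0.00778). Acaa1a had 164 and 146 CPM with SGC-CBP30 and 149 and 151 CPM with vehicle, groups that overlapped, with 0.04 ± 0.07 (SE). Per length, Acaa1b stood at 0.968 and 0.963 of the Acaa1a level in both SGC-CBP30 libraries and at 1.26 and 1.17 in the vehicle libraries, and the difference between the log2 fold changes was not tested. The Acaa1b call was lost without vehicle replicate 1 (-0.24, edgeR adjusted p = 0.156, the highest over its 10 alternatives, of which the lowest was 1.43e-05). Since 30.5% of the 50-base windows of Acaa1b transcripts also occur in Acaa1a, the split of reads between them is uncertain.

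Acyl-CoA thioesterases release free fatty acids from coenzyme A, Acot1 in the cytosol and Acot2 in mitochondria, and the genes are neighbours on chromosome 12 with 15616 bases between them. Acot1 (ENSMUSG00000072949, 84009490 to 84018371, plus strand) had 53.7 and 47.8 CPM in SGC-CBP30 libraries and 82.5 and 84.5 CPM in vehicle libraries, and was 1.65-fold lower, at -0.72 ± 0.08 (SE, edgeR adjusted p = 1.41e-07). Acot2 stood at 14.2 and 12 CPM with SGC-CBP30 and 13.8 and 16.9 CPM with vehicle. Its groups overlapped, and its log2 fold change of -0.22 ± 0.15 (SE) was not past the threshold, with a 95% interval of -0.53 to 0.08. Per length, the Acot1 level was 2.11 and 2.23 times that of Acot2 in SGC-CBP30 libraries, against 3.36 and 2.8 times in vehicle libraries. As 13.6% of the windows of Acot1 and 24.5% of those of Acot2 occur in the other gene, their counts are not fully separable.

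Of the 3 ketone genes 1 fell (33.3%, against 16.3% of all tested genes) and 2 were not past the threshold. Bdh1, which interconverts acetoacetate and beta-hydroxybutyrate, had 133 and 124 CPM in SGC-CBP30 libraries and 150 and 148 CPM in vehicle libraries, and fell by 0.21 ± 0.07 on the log2 scale (SE, edgeR adjusted p = 0.0167). The call was lost without vehicle replicate 1 (-0.21) or 2 (-0.22), under scaling by library totals and in DESeq2, with adjusted p from 0.000233 to 0.2. Oxct1, which activates ketone bodies for burning, had 135 and 140 CPM with SGC-CBP30 and 153 and 152 CPM with vehicle, with -0.15 ± 0.07 (SE, edgeR adjusted p = 0.0914), and passed without SGC-CBP30 replicate 2 (-0.17). Acat1, the mitochondrial acetoacetyl-CoA thiolase, had overlapping groups and -0.02 ± 0.08 (SE).

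The 17 genes that were not past the threshold had log2 fold changes between -0.37 and 0.18. For 16 of them the 95% interval lay within 1.5-fold in either direction, the exception being Etfb with an interval of -0.93 to 0.18.

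Other genes of the pathway were described from a list of 68, of which 58 were tested: 26 fell (44.8%, against 16.3% of all tested genes) and 2 rose (3.45%, against 13.6%), with a median log2 fold change of -0.32. Peroxisomal genes held the largest number of these, with 11 of 16 lower and 0 higher. The list was drawn up with earlier results of these data known, so its shares are not independent of them. The 12 called genes of smallest p all fell, and each kept its call under all 10 alternatives. Eci3, a peroxisomal isomerase gene, had 13.2 and 15 CPM in SGC-CBP30 libraries and 50.8 and 49 CPM in vehicle libraries, and was 3.54-fold lower, at -1.82 ± 0.11 (SE). Phyh, which starts the breakdown of phytanic acid, fell by 0.52 ± 0.06 on the log2 scale, and the branched-chain oxidase gene Acox2 fell by 1.22 ± 0.16 (SE). Ppargc1a, the gene of a coactivator of PPAR-alpha, had 13.4 and 17.9 CPM with SGC-CBP30 and 48.2 and 47.3 CPM with vehicle, and was 3.05-fold lower, at -1.61 ± 0.12 (SE).

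The other genes described from these 12 were listed under uptake and lipolysis, mitochondrial oxidation and other PPAR targets. Slc27a2 and Slc27a4, fatty acid transport proteins with acyl-CoA synthetase activity, had log2 fold changes of -0.74 ± 0.07 and -0.47 ± 0.06 (SE). Lipe, the gene of hormone-sensitive lipase, fell by 1.05 ± 0.09 (SE), with 31.9 and 27.2 CPM with SGC-CBP30 and 59.9 and 62 CPM with vehicle. Acad11, an acyl-CoA dehydrogenase gene, fell by 0.72 ± 0.07, and Acss1, which activates acetate in mitochondria, fell by 0.95 ± 0.12 (SE). The pyruvate dehydrogenase kinase gene Pdk2 fell by 0.64 ± 0.08, and the pantetheinase gene Vnn1 fell by 1.57 ± 0.18 (SE). The next genes lie outside the naming rule and were chosen with their values in view. The 2 that rose were Dbi, an acyl-CoA binding protein gene (0.22 ± 0.07), and Slc22a5, the carnitine importer gene (0.32 ± 0.09), and the number that rose became 1 and 6 when SGC-CBP30 replicate 1 or 2 was left out, and 1 and 0 when vehicle replicate 1 or 2 was left out. Rxra, the gene of the DNA-binding partner of PPAR-alpha, fell by 0.45 ± 0.07. Of the 7 tested genes listed as regulators and partners, 3 fell (42.9%, against 16.3% of all tested genes) and 0 rose. The other 4 were not past the threshold, Ppard (-0.14), Pparg (0.10), Creb3l3 (0.12) and Esrra (-0.10).

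**Figure D3:**
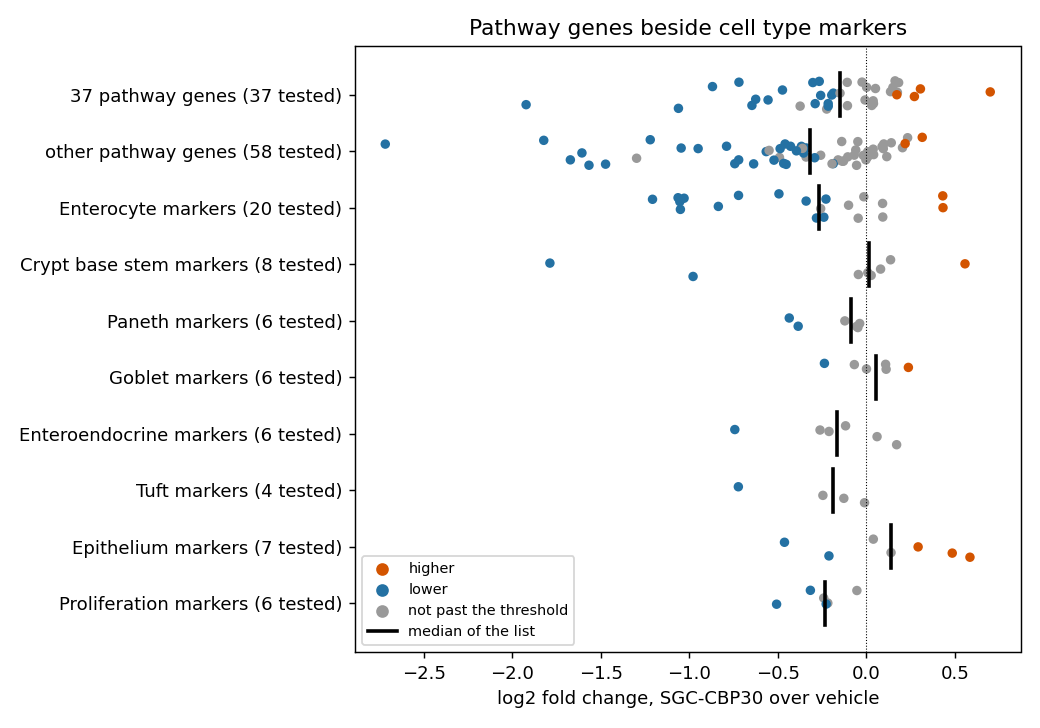
Log2 fold changes, SGC-CBP30 over vehicle, of the tested genes of each list, 1 point per gene, with colours for the call and a black bar at the median. The 37 pathway genes have a median of -0.15 (-0.0237 with SGC-CBP30 replicate 2 left out) and the enterocyte markers one of -0.27.

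Enterocyte markers moved beside the pathway genes. Of 20 tested enterocyte markers, 12 fell (60%, against 16.3% of all tested genes) and 2, Apoa4 and Krt20, rose (10%, against 13.6%), with a median log2 fold change of -0.27. The number that rose was 4 when SGC-CBP30 replicate 2 was left out and under scaling by library totals. Fabp1 and Fabp2 of that list are also among the other pathway genes. The enterocyte list too was drawn up with earlier results of these data known. The summed level of the enterocyte markers was 63918 and 62084 CPM in SGC-CBP30 libraries and 77677 and 78416 CPM in vehicle libraries. Such a sum weighs abundant genes most, Sis among them, and 6 of the 20 markers were not past the threshold. Among the most abundant, Sis had 6787 and 7781 CPM with SGC-CBP30 and 15129 and 15101 CPM with vehicle. Apoa1 had overlapping groups at 6550 and 5245 CPM with SGC-CBP30 and 6271 and 6367 CPM with vehicle, and Apob fell, with 5442 and 6407 CPM in SGC-CBP30 libraries and 7126 and 7272 CPM in vehicle libraries. The part of enterocyte content in the changes of the 37 genes was not tested, and in bulk libraries fewer cells of a type and less RNA per cell cannot be told apart. Among markers of other lineages 2 of 6 Paneth, 1 of 6 goblet, 1 of 6 enteroendocrine, 1 of 4 tuft and 2 of 8 crypt base stem cell markers fell, and 1 goblet and 1 stem cell marker rose. The share called in these lists lay between 16.7% and 37.5%, around the 30.0% of all tested genes, and the difference from the enterocyte list was not tested. Of 6 proliferation markers 3 fell (50%, against 16.3% of all tested genes) and 0 rose. The general epithelial markers were called at 71.4% (42.9% higher and 28.6% lower), and the enterocyte markers at 70%.

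**Figure D4:**
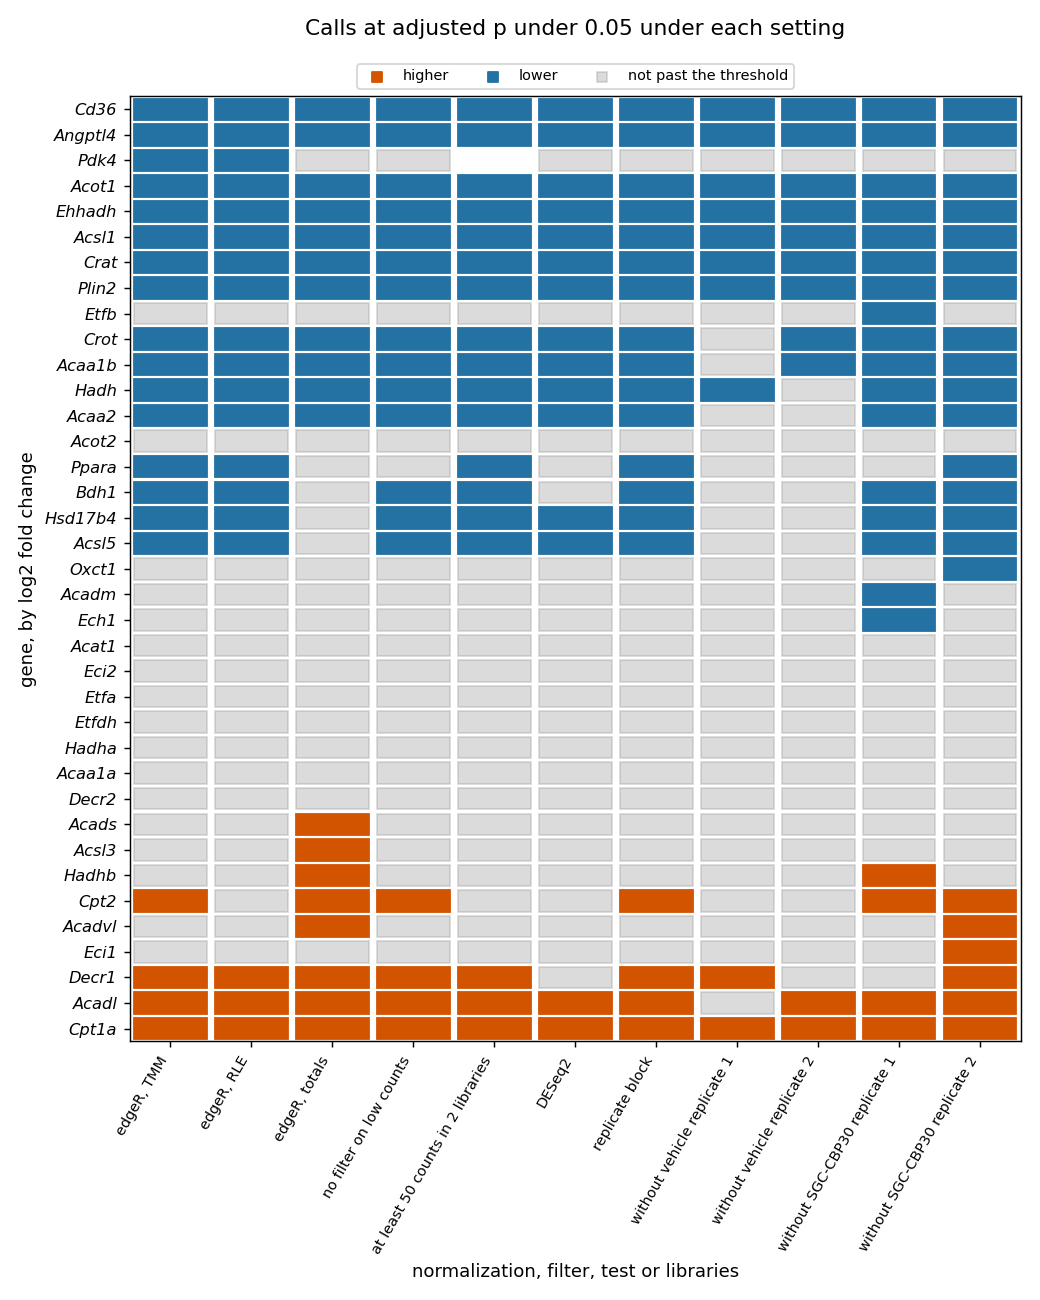
The call of each of the 37 genes, ordered by log2 fold change, under the edgeR fit with TMM scaling (left column) and each of 10 alternatives, with orange for higher, blue for lower, grey for not past the threshold and white for not tested. Rows of 1 colour throughout include Cd36, Angptl4, Acot1, Ehhadh, Acsl1, Crat, Plin2 and Cpt1a.

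The authors' deposited table gives its own comparison of SGC-CBP30 with vehicle, and 15 of the 37 genes have an adjusted p under 0.05 there, 13 lower and 2 higher. All 15 were called here with the same sign. The 5 genes called here only were Bdh1, Cpt2, Decr1, Pdk4 and Ppara. Log2 fold changes in the authors' deposited table differed from those of the present fit by at most 0.00124 over the 37 genes.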

How the data were processed

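RNA sequencing counts of 4 libraries, 2 given SGC-CBP30 and 2 given vehicle, came from 1 deposited table, which stops within its last line. Per the file headers, the authors deposited raw counts, FPKM, group means on a normalized count scale (a signal not used in any test), a log2 fold change, a p-value and an adjusted p-value. The deposited gene length, in bases, was used only through the FPKM. Per the submitters' processing notes, the tools included featureCounts 1.5.0-p3, HISAT2 2.0.5 and StringTie 1.3.3b, with the build mm9. The table's coordinates are those of GRCm38: of 51487 identifiers shared with GENCODE M21, 98.5% had identical coordinates (32 of the 37 genes). How strand and multi-mapped reads were treated is not given in the sources used here. Date-like symbols (27) were restored by identifier.

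The test was that of edgeR 4.0.16 in R 4.3.3, with filterByExpr, TMM, robust dispersions, quasi-likelihood F test, Benjamini-Hochberg adjustment over 14684 genes, called under 0.05. SE is the absolute log2 fold change divided by the square root of F, and 95% intervals use its t quantile. The procedure was tested on simulated data. DESeq2 1.42.0 was an alternative. The 37 genes, the lists and the motifs were chosen with earlier results of these data known. All 37 genes are reported. From the other pathway genes the 12 called of smallest p are named, and from the enterocyte markers the 4 of highest CPM, except that some genes under this rule are not reported here. Promoters are from RefSeq (GRCm38.p6). Shared 50-base windows were counted in GENCODE M21 transcripts. Within a group, libraries differed beyond sampling noise (chi-square over its degrees of freedom 6.68 for SGC-CBP30 and 3.05 for vehicle), so none was treated as a duplicate.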

Additional observations from a re-analysis of the deposited data

How the results depend on the processing

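Of the 16 genes that fell, 7 kept their call under all 10 alternatives, and of the 4 that rose, 1 did; no called gene turned round. The 37 genes gave 8 higher calls with library totals as the scale and 2 in DESeq2, against 4 in the fit reported. Leaving out 1 library gave 2 to 6 higher and 8 to 17 lower calls. The median log2 fold change ran from -0.1956 (without SGC-CBP30 replicate 1) to -0.0237 (without SGC-CBP30 replicate 2). The other pathway genes gave 5 higher calls with library totals and 1 in DESeq2, and 0 to 6 when 1 library was left out, against 2. Enterocyte markers gave 4 higher calls with library totals, and 2 to 4 when 1 library was left out. Over all genes, DESeq2 called 1070 higher and 1652 lower, and leaving out 1 library gave 1235 to 2104 higher calls. Library totals moved the median of all genes by 0.07 on the log2 scale. A lone library left in a group is assumed to vary like the other group. Replicate numbers are shared by title only: deviations of same-numbered libraries had a correlation of -0.0244 across genes, and the replicate block gave 4 higher and 15 lower calls, ending only that of Pdk4 (adjusted p = 0.057). Pdk4 could not be tested with at least 50 counts required in 2 libraries. The largest SEs, 0.33, 0.27 and 0.15, were those of the low-count genes Pdk4, Etfb and Acot2. The causes of these differences were not tested.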
